A study of Rattus norvegicus with 20 samples.

Results

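The genes of glucose uptake, glycolysis, lactate and pyruvate use and glycogen turnover were examined in the right ventricle of rats after chronic pulmonary embolism (PE). A list of 34 such genes was matched by gene symbol to the platform annotation of the arrays, using each probe set (a group of short probes for 1 transcript) that carried a single symbol. In this way 33 of the 34 were found, of 14218 genes with such a probe set in the whole series. Pkm had none, and Gapdh was named only by 3 control probe sets of the array, so 32 genes on 50 probe sets were tested, of 14217 genes tested. The brightest probe set of each gene, by its mean log2 signal over all arrays, gives the values below unless another is named, and 12 of the 32 genes had several.

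Chronic embolism was produced in male Sprague Dawley rats of about 350 g with polystyrene beads of 25 micron diameter, not with clots, at 2000000 beads per 100 g of body weight. The beads were given into a jugular vein in 0.01% Tween-20, and control rats were given Tween-20 without beads (vehicle). The right ventricle was taken at 6 weeks and divided into outflow tract (base) and apex, which gave PE outflow, PE apex, vehicle outflow and vehicle apex groups of 5 Affymetrix arrays each. The titles call the samples of a group biological replicates. The groups follow the titles and the treatment field, although a further field mentions vehicle alone throughout. The age of the rats is not given in the labels. RNA came from crushed whole tissue, in which fewer cells of a type and less RNA per cell cannot be told apart.

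Glucose enters heart muscle through the transporters Slc2a4 (GLUT4), which moves to the surface in response to insulin, and Slc2a1 (GLUT1), which serves basal uptake in many cells. Hexokinase traps it as glucose 6-phosphate, which is either stored as glycogen or passed through phosphofructokinase into glycolysis, and the resulting pyruvate becomes lactate or enters mitochondria through the pyruvate dehydrogenase complex. Several of these steps have a form that prevails in striated or heart muscle and others that prevail in other tissues, so the members were also compared as isoform pairs. The adult heart is known to draw most of its energy from fatty acids, and the overloaded right ventricle is known for a greater use of glucose.

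RefSeq promoters on the rat build GRCr8, from 250 bases before to 50 bases after the annotated start, were matched by symbol for 30 of the 32 tested genes. Slc2a4 and Pgk1 were the other tested genes. The promoters of Pfkm, Pfkp, Pgam2 and Pgam1 are printed because the muscle forms Pfkm and Pgam2 fell in the PE outflow tract while Pfkp and Pgam1 did not, and that of Aldoc because it had the largest rise. Pfkm lies on the plus strand at chr7:131113849-131114148, Pfkp on the plus strand at chr17:68639563-68639862, Pgam2 on the minus strand at chr14:84897825-84898124, Pgam1 on the plus strand at chr1:250672902-250673201 and Aldoc on the plus strand at chr10:63715294-63715593. Capitals mark the core of the hypoxia response element, ACGTG, which reads CACGT where it lies on the other strand. They also mark the E-box, CANNTG.
Pfkm: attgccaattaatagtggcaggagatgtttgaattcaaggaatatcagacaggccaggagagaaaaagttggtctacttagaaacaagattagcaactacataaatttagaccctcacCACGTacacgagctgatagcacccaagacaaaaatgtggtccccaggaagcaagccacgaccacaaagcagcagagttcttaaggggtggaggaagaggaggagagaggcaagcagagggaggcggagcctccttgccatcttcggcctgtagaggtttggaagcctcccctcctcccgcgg
Pfkp: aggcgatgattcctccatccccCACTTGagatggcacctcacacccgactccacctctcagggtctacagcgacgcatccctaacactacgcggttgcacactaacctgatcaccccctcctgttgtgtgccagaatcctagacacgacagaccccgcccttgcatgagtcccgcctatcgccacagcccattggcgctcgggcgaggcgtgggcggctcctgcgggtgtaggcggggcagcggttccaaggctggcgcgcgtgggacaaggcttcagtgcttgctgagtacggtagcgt
Pgam2: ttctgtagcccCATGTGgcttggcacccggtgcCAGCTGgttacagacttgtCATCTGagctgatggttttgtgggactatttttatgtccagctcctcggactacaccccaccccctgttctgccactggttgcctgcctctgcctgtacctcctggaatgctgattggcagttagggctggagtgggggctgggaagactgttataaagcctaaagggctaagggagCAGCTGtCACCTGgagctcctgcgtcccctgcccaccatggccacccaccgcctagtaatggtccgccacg
Pgam1: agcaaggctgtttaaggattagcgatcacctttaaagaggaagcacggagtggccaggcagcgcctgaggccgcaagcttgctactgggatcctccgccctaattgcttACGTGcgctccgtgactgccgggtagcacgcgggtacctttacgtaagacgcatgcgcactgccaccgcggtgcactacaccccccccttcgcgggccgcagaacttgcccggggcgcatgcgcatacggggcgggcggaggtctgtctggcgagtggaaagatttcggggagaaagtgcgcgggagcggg
Aldoc: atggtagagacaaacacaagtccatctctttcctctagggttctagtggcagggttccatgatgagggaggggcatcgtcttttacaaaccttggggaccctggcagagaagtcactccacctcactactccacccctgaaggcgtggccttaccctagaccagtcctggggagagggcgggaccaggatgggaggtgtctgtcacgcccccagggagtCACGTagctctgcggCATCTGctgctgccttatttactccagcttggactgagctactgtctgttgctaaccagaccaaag
Both strands were searched for ACGTG as the hypoxia core, for CANNTG as the E-box, for CTANNNNTAG as the MEF2 type of site, for GGGCGG as the GC box and for CCAAT as the box of that name. A stretch of CACGTG would count as E-box and as hypoxia core. Pgam2 held 5 E-boxes and no hypoxia core, and Pgam1 held 1 hypoxia core and no E-box. Pfkm held 1 hypoxia core and no E-box, Pfkp 1 E-box and no hypoxia core, and Aldoc 1 of each. The hypoxia core was found in 15 of the 30 member promoters and in 19.7% of 27457 promoters, while the E-box was found in 22 of 30 and in 71.6%. The MEF2 type was found in 0 of 30 and in 3.83% of all, the GC box in 18 of 30 and in 34.9%, and the CCAAT box in 11 of 30 and in 37.7%. These matches describe the letters in these windows and are not binding sites.

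The deposited values are linear signals scaled to a common level, and the number of arrays limits their precision. Array medians lay between 132.3 and 159.4 in the PE outflow group, between 129 and 139.1 in the PE apex group, between 123 and 136 in the vehicle outflow group and between 124 and 137.6 in the vehicle apex group. Heart muscle was the tissue by its markers, with a mean Tnnt2 (cardiac troponin T) signal of 40710 in PE outflow, 48550 in PE apex, 56650 in vehicle outflow and 55920 in vehicle apex. The GAPDH controls of the array probe both ends of the transcript, and short RNA raises the ratio of their 3′ to their 5′ reading. This ratio was 6.12 on PE outflow replicate 2, 2.34 on replicate 5, 2.2 on replicate 4, 1.71 on replicate 1 and 1.7 on replicate 3. It was 1.47 to 1.67 in PE apices, 1.38 to 1.66 in vehicle outflow tracts and 1.44 to 1.83 in vehicle apices. PE outflow replicates 2, 4 and 5 thus stood apart, and results in the outflow tract are given with all 5 arrays and, further on, with replicates 1 and 3 alone.

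In the PE outflow tract, most of the pathway was lower than in the vehicle outflow tract. Of the 32 tested genes 24 fell, 2 rose and 6 were not called, where a gene is called at a limma adjusted p under 0.05 over all 31042 probe sets. Over all 14217 genes, 18.0% fell and 26.3% rose in the same comparison. The median log2 fold change was -0.87 for the 32 genes, with a range from -2.0 to 1.46, and 0.10 for all genes. Log2 fold changes are PE over vehicle of the signal plus 16, given ± the model's standard error (SE), with n = 5 arrays per group. All 5 PE arrays lay below all 5 vehicle arrays for 22 of the 32 genes, against 12.7% of all genes, and above them for 2 (Pfkp and Aldoc), against 18.8% of all genes. Pfkfb2 and Ldhb were the fallen genes whose groups overlapped.

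**Figure D1:**
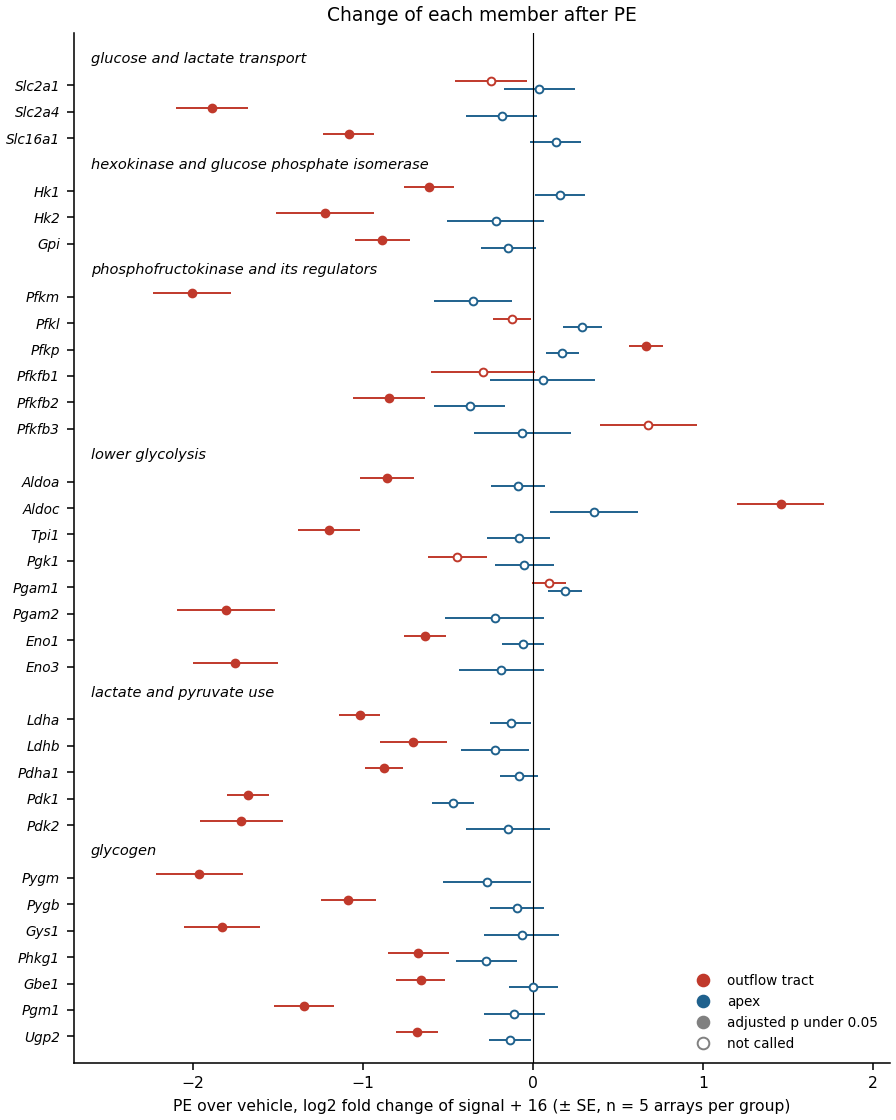
Log2 fold change of PE over vehicle (signal + 16, ± SE, n = 5 arrays per group) of the 32 tested genes, grouped by role, in the outflow tract (red) and the apex (blue); filled points are called by limma. In the outflow tract 24 genes lie left of 0 and are filled, Aldoc and Pfkp are filled on the right, and every apex point is open.

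Of the 3 transporters, Slc2a4 and Slc16a1 fell and Slc2a1 was not called. Slc2a4 had signals of 3822, 3980, 3633, 1655 and 1742 in PE outflow tracts, against 9578, 9897, 10010, 9351 and 12670 in vehicle outflow tracts. The groups did not overlap, and replicates 4 and 5 of the PE group were lowest, at a log2 fold change of -1.89 ± 0.21 (adjusted p = 1.45e-06). Slc2a1 had 519.8, 626, 581, 352 and 334 in PE outflow tracts, against 440.2, 677, 479.8, 635 and 594 in vehicle outflow tracts. Its groups overlapped, with 2 PE arrays below all vehicle arrays and a log2 fold change of -0.25 ± 0.21 (adjusted p = 0.412). Slc16a1 (MCT1), which carries lactate and pyruvate across the cell membrane, averaged 3288 ± 779.9 in PE outflow tracts and 6876 ± 736 in vehicle outflow tracts (SD) and changed by -1.08 ± 0.15 (adjusted p = 1.17e-05). A second, dim probe set of Slc16a1 had 0.09 and was not called.

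Both hexokinases and glucose phosphate isomerase (Gpi), which follows hexokinase in glycolysis, fell. Hk2, the form that insulin induces in muscle, read 108, 33.9, 106, 119 and 62.2 in PE outflow tracts, against 235, 204, 167, 165 and 283 in vehicle outflow tracts. Every PE array lay below every vehicle array and PE replicate 2 was lowest, at a log2 fold change of -1.22 ± 0.29 (adjusted p = 0.00217). Hk1, the form common to many tissues, read 2517, 2404, 2574, 1849 and 1694 in PE outflow tracts, against 2809, 3126, 3410, 3185 and 4330 in vehicle outflow tracts. Here too the groups did not overlap, at a log2 fold change of -0.61 ± 0.15 (adjusted p = 0.00263). A dimmer probe set of Hk1 had -0.22 and was not called, and with the median over its probe sets Hk1 lost its call (-0.42, adjusted p = 0.243). Hk2 lost its call with the GAPDH ratio as a covariate (-0.63, adjusted p = 0.0906). Gpi averaged 5712 ± 1589 in PE outflow tracts and 10330 ± 1687 in vehicle outflow tracts (SD), a change of -0.88 ± 0.16 (adjusted p = 0.000247).

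Among the phosphofructokinases, which commit sugar to glycolysis, the muscle isoform fell most of all members and the platelet isoform rose. Pfkm, the muscle isoform, read 4236, 5681, 4048, 2056 and 1758 in PE outflow tracts, against 12320, 12190, 12280, 13380 and 15110 in vehicle outflow tracts. No PE array reached the lowest vehicle array, and the log2 fold change was -2.0 ± 0.23 (adjusted p = 1.9e-06), a 4.01-fold lower signal. Pfkl, the liver isoform, read 811, 999, 923, 797 and 731 in PE outflow tracts, against 934, 839, 896, 868 and 1103 in vehicle outflow tracts. Its groups overlapped and it was not called, at -0.12 ± 0.11 (adjusted p = 0.459). Pfkp, the platelet isoform, read 1055, 1307, 1312, 1493 and 1373 in PE outflow tracts, against 807, 799, 800.4, 808 and 856 in vehicle outflow tracts. Every PE array was above every vehicle array, the log2 fold change being 0.67 ± 0.10 (adjusted p = 2.59e-05), a 1.59-fold higher signal.

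The bifunctional enzymes of the Pfkfb family set the level of fructose 2,6-bisphosphate, an activator of phosphofructokinase, and of the 3 on the list 1 fell. Pfkfb2, the heart form, read 191, 266, 144, 135 and 127 in PE outflow tracts, against 409.8, 334, 279, 305 and 252 in vehicle outflow tracts. Of its 5 PE arrays 4 lay below all vehicle arrays, and PE replicate 2 did not, at a log2 fold change of -0.85 ± 0.21 (adjusted p = 0.00344), but the call was lost with the median over its probe sets (-0.65, adjusted p = 0.056). Pfkfb3, a form induced in many cells, read 436, 373, 1011, 658 and 933 in PE outflow tracts, against 258, 489.9, 437, 285 and 566 in vehicle outflow tracts. Replicates 3, 4 and 5 of the PE group were above every vehicle array, and the gene was not called at 0.68 ± 0.29 (adjusted p = 0.0745). It was called without PE outflow replicate 1 (0.81), PE outflow replicate 2 (0.86) or vehicle outflow replicate 5 (0.81), and under 5 other alternatives (0.68 to 0.94). Its 2 dimmer probe sets went the other way, at -0.89 ± 0.25 (adjusted p = 0.00966) and -0.77 ± 0.30 (adjusted p = 0.0578), so no direction is given for Pfkfb3. The other probe sets of Pfkfb2 had -1.29 (called), -0.46 and 0.22 (not called). Pfkfb1, the form best known from liver and skeletal muscle, was not called, at -0.29 ± 0.31 (adjusted p = 0.518).

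In lower glycolysis, which splits the sugar and yields ATP and pyruvate, 5 of 8 tested genes fell and 1 rose. Aldoa, the muscle aldolase, read 21940, 34150, 24790, 19160 and 14760 in PE outflow tracts, against 42650, 36050, 39260, 39120 and 43430 in vehicle outflow tracts. All PE arrays were lower than the vehicle arrays, PE replicate 2 being nearest to them, at a log2 fold change of -0.86 ± 0.16 (adjusted p = 0.000267). Aldoc, the brain aldolase, read 266, 365, 410.1, 436 and 548 in PE outflow tracts, against 72.2, 153, 103, 195 and 185 in vehicle outflow tracts. Its groups did not overlap and its log2 fold change of 1.46 ± 0.26 (adjusted p = 0.000169) was the largest rise of the list, a 2.74-fold higher signal at a dim level. Tpi1 (triosephosphate isomerase) averaged 9721 ± 3557 in PE outflow tracts and 21220 ± 2067 in vehicle outflow tracts (SD) and changed by -1.20 ± 0.18 (adjusted p = 4.04e-05).

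Pgam2, the muscle phosphoglycerate mutase, read 5940, 8880, 5039, 2240 and 1887 in PE outflow tracts, against 14810, 12590, 14810, 14590 and 14750 in vehicle outflow tracts. PE replicates 4 and 5 were lowest and no PE array overlapped the vehicle group, at a log2 fold change of -1.80 ± 0.29 (adjusted p = 6.38e-05). Pgam1, the widely expressed isoform, read 6609, 8636, 7603, 7980 and 6990 in PE outflow tracts, against 6483, 6701, 7801, 6539 and 7808 in vehicle outflow tracts. The groups overlapped and Pgam1 was not called at 0.10 ± 0.10 (adjusted p = 0.511), with -0.05 when each array was centred on its median, but after quantile normalization it was called as higher in PE (0.31, adjusted p = 0.0203). Eno3, the muscle enolase, read 5041, 6243, 5335, 2289 and 2080 in PE outflow tracts, against 14870, 12200, 10700, 11620 and 15460 in vehicle outflow tracts. Its groups were apart, at -1.75 ± 0.25 (adjusted p = 1.84e-05).

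Eno1, the widely expressed enolase, read 6577, 6904, 7737, 6069 and 5125 in PE outflow tracts, against 9720, 8937, 9298, 9495 and 12820 in vehicle outflow tracts. It too lay lower on every PE array, at -0.63 ± 0.12 (adjusted p = 0.000447). Pgk1 (phosphoglycerate kinase) averaged 17630 ± 7539 in PE outflow tracts and 22660 ± 1526 in vehicle outflow tracts (SD) and was not called at -0.44 ± 0.17 (adjusted p = 0.0565), but it was called at -0.67 (adjusted p = 3.51e-05) without PE outflow replicate 2 and was also called as lower under 9 other alternatives (-1.12 to -0.44). Another Pgk1 probe set, of a kind that can bind several transcripts, had -1.12 ± 0.13 (adjusted p = 2.43e-06), and the dimmest had 0.09, not called. The GAPDH control probe sets, which were not tested, read 28430, 37270, 27450, 20860 and 17790 in PE outflow tracts, against 50200, 42600, 44660, 45590 and 46120 in vehicle outflow tracts at the 3′ end. At the 5′ end they read 16660, 6092, 16180, 9483 and 7616 in PE outflow tracts, against 33360, 28880, 26970, 31200 and 33490 in vehicle outflow tracts. All PE arrays were below all vehicle arrays at both ends.

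**Figure D2:**
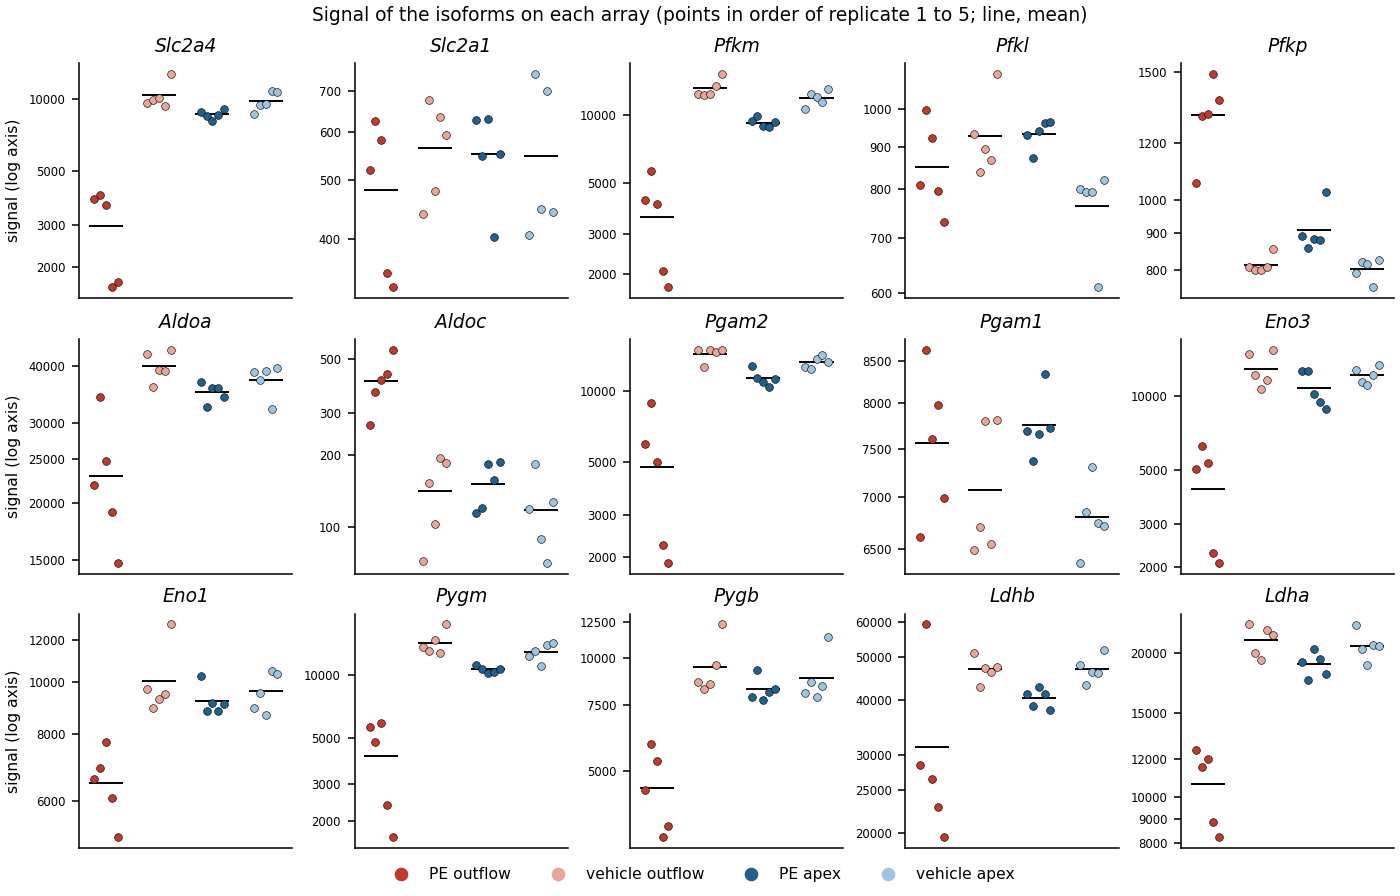
Signal (log axis, each panel with its own range) of 15 isoforms on each of the 20 arrays, by group (PE outflow, vehicle outflow, PE apex, vehicle apex from left to right), with points in order of replicate and a line at the mean. The PE outflow points of Slc2a4, Pfkm, Pgam2, Eno3 and Pygm sit below all others of their panel, and so do those of the partners Eno1, Pygb and Ldha. Those of Pfkp and Aldoc sit above the others, and those of Slc2a1, Pfkl and Pgam1 overlap them.

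All 5 genes of lactate and pyruvate use fell. Ldha, the lactate dehydrogenase subunit prevalent in skeletal muscle, read 12550, 11540, 11980, 8853 and 8221 in PE outflow tracts, against 22950, 19960, 19310, 22370 and 21810 in vehicle outflow tracts. Its groups were apart, at a log2 fold change of -1.02 ± 0.12 (adjusted p = 2.7e-06). Ldhb, the subunit prevalent in heart, read 28480, 59390, 26530, 22810 and 19510 in PE outflow tracts, against 51070, 42780, 47380, 46320 and 47560 in vehicle outflow tracts. PE replicate 2 was above all vehicle arrays and the other 4 PE arrays below them, and the log2 fold change was -0.70 ± 0.20 (adjusted p = 0.00923). When only the PE and vehicle outflow arrays were fitted, Ldhb was not called (-0.70, adjusted p = 0.0657). Pdk1, a kinase that switches off pyruvate dehydrogenase, read 1828, 1778, 1712, 1410 and 1243 in PE outflow tracts, against 5306, 5124, 5390, 4840 and 4732 in vehicle outflow tracts. It had the smallest p of the list, at -1.68 ± 0.12 (adjusted p = 2.73e-08), with groups far apart. Pdk2, another such kinase, averaged 2917 ± 1320 in PE outflow tracts and 8760 ± 1298 in vehicle outflow tracts (SD), a change of -1.71 ± 0.24 (adjusted p = 1.85e-05). Pdha1, a core subunit of that complex, averaged 11170 ± 1905 in PE outflow tracts and 20270 ± 969 in vehicle outflow tracts (SD), a change of -0.88 ± 0.11 (adjusted p = 6.39e-06).

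All 7 glycogen genes fell. Pygm, the muscle glycogen phosphorylase, which breaks glycogen down, read 5643, 4753, 5908, 2369 and 1667 in PE outflow tracts, against 13510, 12950, 14660, 12730 and 17430 in vehicle outflow tracts. PE replicates 4 and 5 were lowest and the groups did not overlap, at a log2 fold change of -1.96 ± 0.26 (adjusted p = 8.21e-06). Pygb, the brain phosphorylase, which the heart also expresses, read 4467, 5901, 5328, 3338 and 3574 in PE outflow tracts, against 8654, 8308, 8533, 9606 and 12320 in vehicle outflow tracts. It fell by less, at -1.08 ± 0.16 (adjusted p = 2.6e-05), again with no overlap. Gys1, the muscle glycogen synthase, averaged 900.2 ± 346 in PE outflow tracts and 3099 ± 799 in vehicle outflow tracts (SD), a change of -1.83 ± 0.22 (adjusted p = 3.54e-06). Pgm1 (phosphoglucomutase), which links glycogen to glycolysis, changed by -1.34 ± 0.18 (adjusted p = 8.67e-06). Ugp2, which makes UDP-glucose, the donor for glycogen, changed by -0.68 ± 0.12 (adjusted p = 0.000235), the branching enzyme Gbe1 by -0.66 ± 0.14 (adjusted p = 0.0013), and Phkg1, a catalytic subunit of phosphorylase kinase, by -0.67 ± 0.18 (adjusted p = 0.00577).

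Markers of cell types moved in the same samples, where 18.0% of all genes fell and 26.3% rose. Of 19 measured cardiomyocyte markers 17 fell in the PE outflow tract, with a median log2 fold change of -0.92, near the -0.87 of the 32 genes. Their summed signal was 255500 to 731700 in PE outflow tracts and 607300 to 722400 in vehicle outflow tracts. Of 17 fibroblast markers 15 rose, with sums of 239200 to 275500 in PE outflow tracts and 105900 to 142000 in vehicle outflow tracts. All 12 monocyte and macrophage markers rose, with sums of 17720 to 44530 in PE and 12100 to 18320 in vehicle outflow tracts. Of the nerve and Schwann cell markers 7 of 8 rose, with sums of 12380 to 17990 in PE and 3612 to 4300 in vehicle outflow tracts, and of the adipocyte markers 5 of 7 rose, with sums of 2495 to 8063 in PE and 707 to 1088 in vehicle outflow tracts. Smooth muscle markers were mixed, with 5 of 8 up and 2 down and sums of 29080 to 47630 in PE and 26610 to 32870 in vehicle outflow tracts. Much of these sums is Des, whose mean fell from 20420 in vehicle to 8466 in PE outflow tracts, and Smtn fell from 2431 to 1225. The rises were those of Acta2 (1870 to 10010), Tagln (1465 to 9438), Myh11 (1559 to 6924), Cnn1 (153.7 to 1558) and Lmod1 (189.5 to 652.8). Near the shares of all genes, of 11 endothelial markers 3 rose and 2 fell, at sums of 32340 to 37380 in PE and 25510 to 36370 in vehicle outflow tracts. Likewise, of 7 lymphocyte markers 2 rose, at 1183 to 2640 in PE and 842 to 1164 in vehicle outflow tracts, and of 6 erythroid markers 1 fell, at 913 to 4843 in PE and 488 to 2494 in vehicle outflow tracts. The 5 neutrophil markers were dim in both groups, at 61.4 to 246 in PE and 18.1 to 150.1 in vehicle outflow tracts, and 1 rose. The part of these shifts in cell types in the changes of the glycolytic genes was not tested.

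The PE outflow arrays differed among themselves. Against the vehicle outflow mean, the median of the 32 genes was -0.66, -0.53, -0.81, -1.09 and -1.31 on replicates 1 to 5, while the median of all genes was 0.04, 0.22, 0.06, 0.13 and 0.05. The median of the cardiomyocyte markers was -0.75, 0.07, -0.90, -1.33 and -1.49 on the same arrays. Of the 24 fallen genes, 18 were lowest on replicate 5, 5 on replicate 4 and 1 on replicate 2, and 12 were highest on replicate 2. Replicates 2, 4 and 5 were also those with the high 3′ to 5′ ratios, and the part of RNA quality was not tested beyond the fits that follow.

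PE outflow replicates 1 and 3 had GAPDH ratios above those of the vehicle outflow arrays (1.38 to 1.66) but within the range of the vehicle apex arrays (1.44 to 1.83). With only these PE outflow arrays, 22 of the 32 genes fell and 2 rose. Of all probe sets 23.5% were called in either direction, a share by probe set and not by gene. Hk1 (-0.39, adjusted p = 0.112), Hk2 (-0.86, adjusted p = 0.0673) and Phkg1 (-0.59, adjusted p = 0.102) were then no longer called by limma, and Pgk1 was (-0.52, adjusted p = 0.00179). Most falls were smaller with these arrays, as for Pfkm at -1.65, Pygm at -1.29 against -1.96, Slc2a4 at -1.45 against -1.89 and Pdk2 at -1.17 against -1.71. Pdk1 had -1.51, Pfkp 0.52 and Aldoc 1.21. Without PE outflow replicate 2 alone, 25 fell and 3 rose, while 37.1% of all probe sets, again not genes, were called in either direction.

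**Figure D3:**
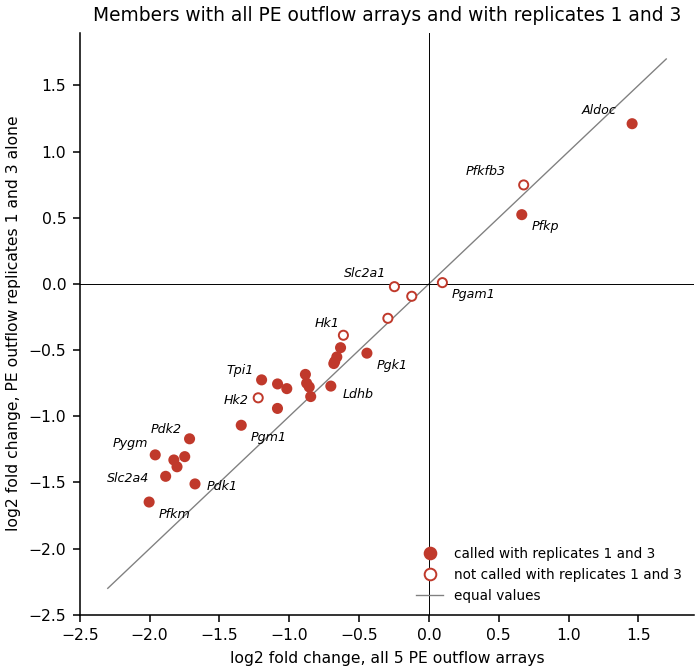
Log2 fold change of PE over vehicle in the outflow tract of the 32 genes with PE outflow replicates 1 and 3 alone (vertical) against all 5 PE outflow arrays (horizontal), with 5 vehicle arrays in both; filled points are called with replicates 1 and 3, and the grey line marks equal values. The large falls lie above the line, so they were smaller with replicates 1 and 3, as for Pygm at -1.29 against -1.96.

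In the apex, 0 of the 32 genes were called between PE and vehicle by limma. Of the 32, 2 had an unadjusted p under 0.05, against 1179 of all 14217 genes. Over all 14217 genes 0.0211% rose (3 genes) and 0 fell. The median log2 fold change of the 32 genes was -0.09, within a range from -0.47 to 0.36. All 5 PE apex arrays lay below all vehicle apex arrays for 3 genes (Pfkm, Ldhb and Pdk1) and above them for 3 (Pfkl, Pfkp and Pgam1), against 2.19% of all genes in each of the directions. These shifts missed the threshold and are given as values. In the same samples the summed signal of the cardiomyocyte markers was 537200 to 624000 in PE apices and 618700 to 710500 in vehicle apices, and that of the fibroblast markers 133800 to 168500 in PE apices and 120900 to 133300 in vehicle apices, and their part in the values was not tested.

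Pdk1 had the smallest p in the apex and read 3223, 3765, 3073, 4243 and 3914 in PE apices, against 4661, 5267, 5018, 4776 and 5411 in vehicle apices. The groups did not overlap, at a log2 fold change of -0.47 ± 0.12 (limma adjusted p = 0.258). A second probe set of Pdk1 averaged 3299 ± 759.8 in PE apices and 3276 ± 669 in vehicle apices (SD), and its groups overlapped. Pfkl read 930, 872, 942, 961 and 964 in PE apices, against 801, 794, 794, 610.2 and 822 in vehicle apices. Its PE arrays were all higher, at 0.29 ± 0.11 (limma adjusted p = 0.562), and vehicle replicate 4 was well below the other vehicle arrays. Pgam1 had the third smallest p and read 7695, 7367, 7655, 8342 and 7729 in PE apices, against 6367, 6847, 7306, 6745 and 6718 in vehicle apices. Its PE arrays were also all higher, at 0.19 ± 0.10 (limma adjusted p = 0.717).

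Pfkm read 9374, 9863, 8909, 8816 and 9248 in PE apices, against 10560, 12300, 11920, 11370 and 13020 in vehicle apices. Every PE apex array was lower than every vehicle apex array. Pfkp read 891, 859, 884, 879 and 1024 in PE apices, against 792, 821, 815, 758 and 825 in vehicle apices. Every PE apex array was higher, PE replicate 5 most. Pgam2 read 12630, 11290, 10850, 10340 and 11230 in PE apices, against 12580, 12330, 13600, 14160 and 13140 in vehicle apices. PE replicate 1 alone reached the vehicle range, and the other 4 PE arrays were lower.

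Slc2a4 read 8820, 8439, 8099, 8573 and 9083 in PE apices, against 8652, 9429, 9485, 10770 and 10660 in vehicle apices. Slc2a1 read 627, 548, 630.3, 404 and 553 in PE apices, against 406, 747, 448, 699 and 443 in vehicle apices. Both transporters overlapped between the groups. Hk2 read 115, 229, 243, 199 and 124 in PE apices, against 291, 245, 115, 244 and 181 in vehicle apices. Hk1 read 3447, 3041, 3441, 3320 and 3653 in PE apices, against 2358, 3310, 3321, 2822 and 3402 in vehicle apices. The 2 hexokinases overlapped as well, with Hk1 above all vehicle arrays on 3 PE arrays. Pfkfb2 read 281, 308, 214, 235 and 160 in PE apices, against 435, 259, 282, 353 and 244 in vehicle apices. Pfkfb3 read 262, 391, 476, 566 and 570.1 in PE apices, against 406, 397, 569.9, 372 and 577 in vehicle apices. Neither separated the groups.

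Aldoa read 36910, 32570, 35910, 35860 and 34240 in PE apices, against 38900, 37230, 39020, 32250 and 39560 in vehicle apices. Aldoc read 114, 120, 183, 157 and 186 in PE apices, against 119, 183, 89.8, 71 and 128 in vehicle apices. Both aldolases overlapped. Eno3 read 12680, 12710, 10260, 9457 and 8887 in PE apices, against 12780, 11390, 11140, 12210 and 13370 in vehicle apices. Eno1 read 10280, 8830, 9136, 8833 and 9081 in PE apices, against 8953, 9536, 8687, 10490 and 10370 in vehicle apices. The 2 enolases overlapped too, with 3 PE arrays of Eno3 below all vehicle arrays. Pygm read 11090, 10640, 10230, 10350 and 10690 in PE apices, against 12240, 12920, 10980, 13850 and 14120 in vehicle apices. Pygb read 7909, 9311, 7736, 8152 and 8282 in PE apices, against 8088, 8625, 7908, 8418 and 11400 in vehicle apices. Of the 5 PE arrays of Pygm 4 were lower than all vehicle arrays, and Pygb overlapped. Ldhb read 41180, 38850, 42790, 41270 and 37940 in PE apices, against 48110, 43290, 46280, 46080 and 51900 in vehicle apices. Ldha read 19140, 17510, 20420, 19450 and 18020 in PE apices, against 22860, 20370, 18830, 20740 and 20670 in vehicle apices. Ldhb was lower on all 5 PE arrays and Ldha on 2.

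The change after PE was compared between the regions by testing the difference of the PE effects, outflow minus apex. The PE effect was lower in the outflow tract for 20 of the 32 genes, higher for 2 and not called as different for 10, while over all genes it was lower for 10.2% and higher for 14.1%. The largest differences were those of Gys1 (-1.76 ± 0.31 (adjusted p = 0.00113)), Slc2a4 (-1.70 ± 0.30 (adjusted p = 0.00101)), Pygm (-1.69 ± 0.36 (adjusted p = 0.00367)) and Pfkm (-1.65 ± 0.32 (adjusted p = 0.00201)), followed by Pgam2 (-1.58), Pdk2 (-1.57) and Eno3 (-1.56). Pdk1 had the smallest p, at -1.20 ± 0.17 (adjusted p = 0.000325). Pfkp (0.49 ± 0.14 (adjusted p = 0.0182)) and Aldoc (1.10 ± 0.36 (adjusted p = 0.0422)) had the higher effect in the outflow tract. These 2 were no longer called when each array was centred on its median (0.37 for Pfkp and 0.98 for Aldoc) or with PE outflow replicates 1 and 3 alone (0.35 and 0.85). The genes not called were Hk2 (-1.0), Ldhb (-0.48), Pfkfb1 (-0.35), Pfkfb2 (-0.47), Pfkfb3 (0.74), Pfkl (-0.41), Pgam1 (-0.09), Pgk1 (-0.39), Phkg1 (-0.40) and Slc2a1 (-0.29).

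Several of these regional differences lay near the threshold, so that leaving out 1 array ended the call while the value moved little. Aldoc lost its call without any 1 of 11 arrays (0.91 to 1.11, adjusted p = 0.057 to 0.0844), namely vehicle apex replicates 1, 2 and 5, vehicle outflow replicates 1 and 3, PE apex replicates 1, 2 and 4 and PE outflow replicates 3, 4 and 5. Ugp2 lost it without any 1 of 12 arrays (-0.55 to -0.47, adjusted p = 0.0528 to 0.0719), which were vehicle apex replicates 2, 3 and 5, vehicle outflow replicates 1, 2 and 3, PE apex replicates 1, 2 and 4 and PE outflow replicates 3, 4 and 5. Gpi lost it without any 1 of 6 (-0.71 to -0.62), which were vehicle apex replicate 1, vehicle outflow replicates 3 and 5, PE apex replicate 1 and PE outflow replicates 4 and 5. Gbe1 lost it without PE apex replicate 3 or 4 or PE outflow replicate 4 or 5 (-0.64 to -0.56), and Eno1 without vehicle apex replicate 3, PE apex replicate 1 or PE outflow replicate 5 (-0.54 to -0.50). After quantile normalization Aldoc (0.94), Ugp2 (-0.42), Gpi (-0.61), Gbe1 (-0.57) and Eno1 (-0.43) were not called either. With PE outflow replicates 1 and 3 alone Hk1 (-0.55), Gpi (-0.54), Eno1 (-0.43) and Ugp2 (-0.47) lost their calls, and Hk1 did so with the median over its probe sets (-0.62). Eno1 also lost its call with the GAPDH ratio (-0.55) or the 3′ to 5′ ratio of the beta-actin controls (-0.57) as a covariate, and Aldoc with either (1.12 and 1.05) or with 1 added in place of 16 (1.16). Without PE outflow replicate 2, Ldhb (-0.74), Pfkl (-0.47) and Pgk1 (-0.62) were called by limma as lower. They were also called under 4 (-0.95 to -0.55), 3 (-0.54 to -0.41) and 5 (-0.99 to -0.47) other alternatives, in that order.

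Within PE rats, the outflow tract was lower than the apex for 21 of the 32 genes and higher for 2, against 15.5% lower and 22.3% higher over all genes. Hk2 was lower here (-1.0 ± 0.29 (adjusted p = 0.0122)), as were Pdk1 (-1.19 ± 0.12 (adjusted p = 2.6e-06)), Slc2a4 (-1.63 ± 0.21 (adjusted p = 1.45e-05)) and Slc16a1 (-1.18 ± 0.15 (adjusted p = 1.11e-05)), and Aldoc (1.31 ± 0.26 (adjusted p = 0.000661)) and Pfkp (0.51 ± 0.10 (adjusted p = 0.000517)) were the higher genes. Hk2 lost this call with the beta-actin ratio as a covariate (-0.45, adjusted p = 0.304), with the GAPDH ratio (-0.46, adjusted p = 0.223) and with PE outflow replicates 1 and 3 alone (-0.63, adjusted p = 0.219). Hk1 (-0.63) lost its call with replicates 1 and 3 alone (-0.40) and with the median over its probe sets (-0.35), and Eno1 (-0.52) with replicates 1 and 3 alone (-0.37). Ldhb (-0.48), Pgk1 (-0.37) and Pfkfb2 (-0.46) were not called, but each was without PE outflow replicate 2 (-0.75, -0.59 and -0.61), and Pfkfb2 also without PE apex replicate 5 (-0.58). Under other alternatives Ldhb was called in 7 (-0.93 to -0.48), Pgk1 in 6 (-0.89 to -0.45) and Pfkfb2 in 4 (-0.57 to -0.46). This comparison and PE against vehicle in the outflow tract share the PE outflow arrays. Within vehicle rats 0 of the 32 genes and 0% of all genes were called between the regions by limma, and the median of the 32 log2 fold changes, outflow over apex, was 0.06.

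The isoform pairs asked whether the form prevalent in muscle or heart changed by more than its partner. For each array the log2 signal of the partner was taken from that of the muscle or heart form, and PE and vehicle arrays were compared by an exact permutation test over all 252 splits, whose smallest p is 0.00794. The 10 pairs compare changes, not levels, since probe sets differ in brightness. In the outflow tract, the muscle form fell relative to its partner in 7 of 10 pairs (exact two-sided permutation p = 0.00794 each, adjusted p = 0.0113 over the 10 pairs), and in each of these all 5 PE arrays lay below all 5 vehicle arrays. The difference of the changes was -2.67 for Pfkm over Pfkp, -2.31 for Aldoa over Aldoc, -1.90 for Pgam2 over Pgam1 and -1.88 for Pfkm over Pfkl. It was -1.64 for Slc2a4 over Slc2a1, -1.12 for Eno3 over Eno1 and -0.88 for Pygm over Pygb, and in both of the last pairs the partner fell as well. Pfkm enters 2 of these pairs.

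The other 3 pairs were not called in the outflow tract. Pfkfb2 over Pfkfb3 had a difference of -1.53 (exact permutation p = 0.0476, adjusted p = 0.0595), which was called without PE outflow replicate 2 (-1.87). The value rests on the brightest probe set of Pfkfb3. Its dimmer probe sets went the other way, so no direction is given for Pfkfb3. Hk2 over Hk1 had -0.61 (exact permutation p = 0.0635, adjusted p = 0.0705), called without PE outflow replicate 4 (-0.79), and Ldhb over Ldha had 0.32 (exact permutation p = 0.111), called without PE outflow replicate 3 (0.39). After quantile normalization all 3 were called (-1.53, -0.76 and 0.33 in the same order), and Hk2 over Hk1 also with 1 added in place of 16 (-0.78). With PE outflow replicates 1 and 3 alone the 7 called pairs had -2.17, -1.99, -1.39, -1.56, -1.43, -0.82 and -0.35 in the order above. None of the 7 then passed the threshold (exact permutation adjusted p = 0.0595 for each). With 2 against 5 arrays there are few splits, so this exact test can hardly pass it.

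In the apex, 3 of the 10 pairs were called in the same direction (exact permutation p = 0.00794 each, adjusted p = 0.0265). The difference of the changes was -0.64 for Pfkm over Pfkl, -0.53 for Pfkm over Pfkp and -0.42 for Pgam2 over Pgam1, with all 5 PE arrays below all vehicle arrays in each. When all probe sets of a gene were averaged, none of the 3 was called (-0.45, -0.33 and -0.42, with exact permutation adjusted p = 0.119, 0.179 and 0.0794). Pgam2 and Pgam1 have a single tested probe set each. The value of that pair therefore did not change, and only the adjustment over the 10 pairs did. Pgam2 over Pgam1 was also not called without vehicle apex replicate 4 (-0.39, exact permutation adjusted p = 0.0529). The other 7 pairs had differences from -0.45 to -0.09.

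**Figure D4:**
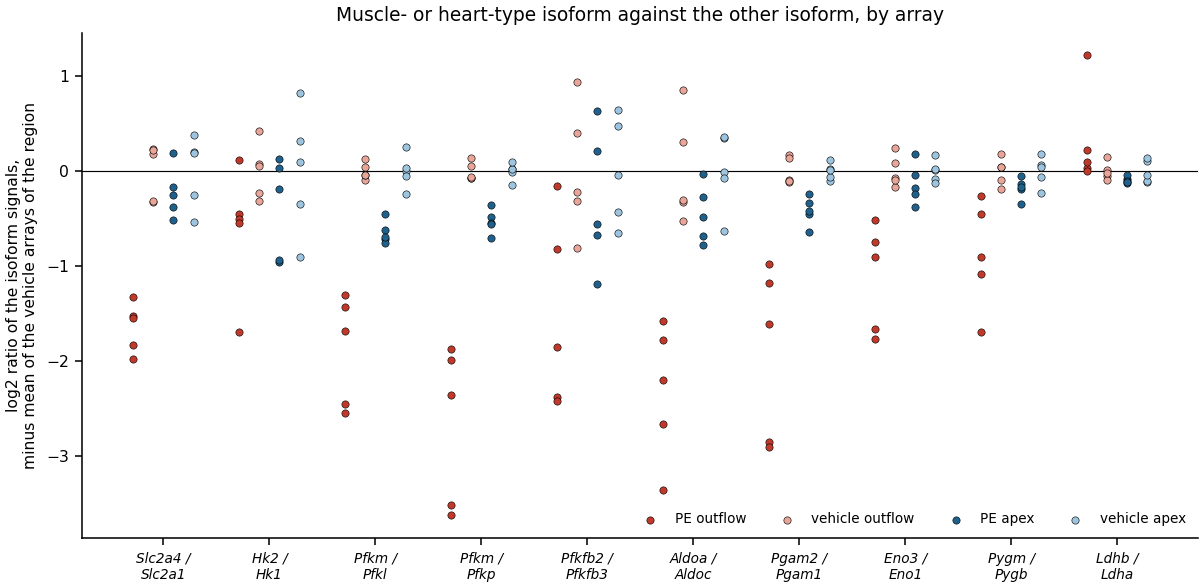
Log2 ratio of the muscle- or heart-type isoform to its partner on each array, minus the mean of the vehicle arrays of the same region, for the 10 pairs (PE outflow, vehicle outflow, PE apex, vehicle apex from left to right within a pair). PE outflow points lie below all vehicle outflow points in 7 pairs, and PE apex points lie below all vehicle apex points for both Pfkm pairs and for Pgam2 over Pgam1.

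The other genes of glucose and glycogen metabolism were counted from a further list of 76, of which 65 were measured. In the outflow tract 28 fell, 17 rose and 20 were not called, with a median log2 fold change of -0.23. Over all genes 18.0% fell and 26.3% rose, so the rises of the list were about as frequent as among all genes. By p, the leading falls were those of Egln1 (-1.08 ± 0.11 (adjusted p = 5.67e-07)), an oxygen sensor that marks hypoxia-inducible factors for destruction, Mpc2 (-1.13 ± 0.12 (adjusted p = 8.44e-07)), a subunit of the mitochondrial pyruvate carrier, and Tbc1d4 (-1.03 ± 0.11 (adjusted p = 9.22e-07)), which holds GLUT4 inside the cell until insulin acts. Ppp1r3a (-1.75 ± 0.19 (adjusted p = 1.23e-06)), the muscle subunit that ties protein phosphatase 1 to glycogen, and Pdhb (-1.30 ± 0.14 (adjusted p = 1.28e-06)), a subunit of pyruvate dehydrogenase, followed. The leading rises were those of Pdk3 (1.62 ± 0.17 (adjusted p = 6.89e-07)), a further pyruvate dehydrogenase kinase, Tkt (0.94 ± 0.13 (adjusted p = 1.13e-05)), the transketolase of the pentose phosphate pathway, and Pgm2 (1.22 ± 0.18 (adjusted p = 2.23e-05)), which interconverts sugar phosphates. Hif1a (0.81 ± 0.13 (adjusted p = 4.24e-05)), the oxygen-regulated subunit of a hypoxia-inducible factor, and Tbc1d1 (0.89 ± 0.16 (adjusted p = 0.000242)), a relative of Tbc1d4, rose too.

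By group, to be read against the same shares of all genes, 6 of 7 measured genes of the pyruvate dehydrogenase complex and its regulators fell and Pdk3 rose. Of 16 further glycogen genes 9 fell and 2 rose, and of 12 further glycolytic genes 4 fell and 5 rose. Of 6 pentose phosphate genes 3 rose and 0 fell by limma, and these 3 were the ones with an unadjusted p under 0.05. Of 11 genes that link the insulin signal to glucose uptake 4 fell and 2 rose, of 6 genes of the hypoxia factors 2 fell and 2 rose, and of 7 further transporters 3 fell and 2 rose, so that the rises in these 3 groups were near or below the share of all genes. In the apex 0 of the 65 were called by limma, with 5 at an unadjusted p under 0.05, against 1179 of all 14217 genes.

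The scaling of the arrays moved the balance of calls over all probe sets more than that of the members. In the outflow tract, 56.7% of the called probe sets were higher in PE with the deposited scaling, 49.1% after quantile normalization and 42.7% with each array centred on its median, where the median over all probe sets was 0.05, -0.01 and -0.06. For the 32 genes, 24 fell and 2 rose with the deposited scaling, 24 fell and 3 rose after quantile normalization and 25 fell and 2 rose with median centring. For the difference of the PE effects the share of higher calls was 54.9%, 48% and 38.2%, with 20 lower and 2 higher members, 16 lower and 1 higher, and 21 lower and 0 higher. Between the regions of PE rats the share was 55.7%, 49.2% and 43.2%, with 21, 22 and 24 members lower and 2 higher under each.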

How the data were processed

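Each deposited value is the intensity of 1 probe set on 1 array, on a linear scale. Scaling by the authors shows in the mean of each array, trimmed by 2% at both ends, which was 500.2 throughout. The software is not given in the sources used here. Of 31099 probe sets, 57 controls were left out of the tests, and 31042 were tested. The platform annotation gave 1 symbol to 20826 of them, several to 436 and none to 9780, and Entrez identifiers matched 20758 to a current rat gene table, which changed 0 symbols. Probe sets were assigned from that annotation, which can be old.

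Signals plus 16 were taken to log2, and limma 3.58.1 under R 4.3.3 fitted the means of the 4 groups over 20 arrays (eBayes, two-sided, Benjamini-Hochberg over 31042 probe sets). Isoform pairs were tested with exact permutations in Python 3.11.15 with numpy 2.4.6. The fit was tested on simulated data.

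The members, the lists and the pairs were chosen with earlier results of these data known. Every tested member is named on its brightest probe set, and other probe sets where their call or sign differed in the outflow tract. The second probe set of Pdk1 is also given in the apex. Values by array are given for the isoform pairs, for up to 3 largest rises and 3 largest falls called in the outflow tract and for the 3 smallest p in the apex. Of the further pathway genes, the 5 rises and 5 falls with the smallest p in the outflow tract are named.

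Replicate numbers paired apex with outflow samples within a treatment: over the 12310 probe sets whose mean log2 exceeded 8, array deviations from their group mean correlated at 0.181 to 0.283 in PE and at 0.181 to 0.275 in vehicle rats, best with the same number for every array. The labels do not say that a number marks 1 rat. Numbers did not pair PE with vehicle samples. Alternatives covered scaling, the added constant, dim probe sets, the fitted groups, the variance model, array weights, the 3′ to 5′ ratios, replicate blocks, the choice of probe set and single arrays left out.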

Additional observations from a re-analysis of the deposited data

Results flagged for a closer look

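Some samples lay far from the others of their group. The gap between the highest or lowest array and its neighbour, on the log2 scale, was set against the range of the group. For 15 of 128 combinations of a member and a group it took up more than Dixon's 95% limit for 5 arrays allows. Chance gives about 1 in 20, or 6.4. None was in the PE outflow group on this scale. Because the limit is relative to a group's own range, this does not show that no PE outflow array stood apart. In vehicle outflow tracts, replicate 5 was the highest for Slc2a4 (0.776 of the range), Pfkp (0.849), Eno1 (0.768), Pdk2 (0.898) and Gys1 (0.802), replicate 4 the lowest for Slc16a1 (0.763) and replicate 2 the lowest for Pgam2 (0.908). In PE apices, replicate 1 was the highest for Gpi (0.726) and Eno1 (0.775), replicate 5 for Pfkp (0.79) and replicate 4 for Pdha1 (0.899). In vehicle apices, replicate 4 was the lowest for Pfkl (0.881), replicate 5 the highest for Tpi1 (0.937) and Pygb (0.763), and replicate 1 the lowest for Pgm1 (0.746).

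The PE effect differed between outflow tract and apex, by limma's test of the difference, for 22 members. On the log2 scale, outflow minus apex, it was -1.76 for Gys1, -1.70 for Slc2a4, -1.69 for Pygm, -1.65 for Pfkm, -1.58 for Pgam2, -1.57 for Pdk2 and -1.56 for Eno3. It was -1.23 for Pgm1, -1.22 for Slc16a1, -1.20 for Pdk1, -1.11 for Tpi1 and -0.99 for Pygb. Smaller differences were those of Ldha (-0.89), Pdha1 (-0.80), Hk1 (-0.77), Aldoa (-0.77), Gpi (-0.74), Gbe1 (-0.66), Eno1 (-0.58) and Ugp2 (-0.55). The effect was higher in the outflow tract for Pfkp (0.49) and Aldoc (1.10).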

How the results depend on the processing

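Called members numbered 26 in the outflow tract and 24 to 28 over the alternatives, 22 and 17 to 25 for the difference of the PE effects, 23 and 22 to 26 between the regions of PE rats, and 0 in every alternative in the apex and between the regions of vehicle rats. With the median over its probe sets, Pfkfb3 turned to -0.95 in the outflow tract, to -1.15 for the difference and to -0.85 between PE regions, since its other 2 probe sets had the opposite sign. Pgam1 turned to -0.0526 in the outflow tract with median centring and to -0.0206 with the GAPDH ratio as a covariate, which was chosen after seeing the data. After quantile normalization Pgam1 had 0.10 for the difference and 0.15 between PE regions, and with 1 array left out it ranged from -0.0910 to 0.0052 (without PE outflow replicate 1) between PE regions. Slc2a1 had 0.0099 between PE regions with PE outflow replicates 1 and 3 alone. The cause of the turns of Pgam1 and Slc2a1 was not tested. In the apex, 4 probe sets were called, against 1 after quantile normalization, 17 with 64 added, 15 without the 40% dimmest, 23 with an intensity trend and robust variances, 31 with array weights, 7 with the beta-actin ratio, 7 with the GAPDH ratio, 22 with PE outflow replicates 1 and 3 alone and 1 to 30 with 1 array left out, and the cause was not tested. With PE outflow replicates 1 and 3 alone, fewer arrays gave 3646 probe sets for the difference, against 5567, and 5320 between PE regions, against 8924. The 7 isoform pairs of the outflow tract became 0 with these arrays, and the 3 of the apex became 0 with the mean over probe sets. The value of Pgam2 over Pgam1 was unchanged by that mean. Between vehicle regions 1 probe set was called, against 0, when only these groups were fitted, and 0 to 1 with 1 array left out. With the replicate number as a random block within a treatment (consensus correlation 0.0651), 24 members fell and 2 rose in the outflow tract, as without the block. With the number as a fixed block, Pfkfb2 was called between PE regions (-0.46, adjusted p = 0.0169), and the difference of Gbe1 was not (-0.66, adjusted p = 0.0656). Pgam1 was called in the outflow tract after quantile normalization (0.31). Brightness limits Phkg1 and Pfkfb1, with group means of 107 to 181 and 117 to 177, near the array medians of 123 to 159.4, as well as Hk2 in PE outflow tracts (85.7). It also limits Aldoc outside the PE outflow tract, with means of 118.3 in vehicle apices, 141.6 in vehicle outflow tracts and 152.2 in PE apices.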

Other observations

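Second probe sets of Pdha1, Pfkm and Pdk2, named after their values were seen, read lowest of the PE outflow group on replicate 2, the array with the highest GAPDH 3′ to 5′ ratio. The dimmer probe sets of Pygm were also lowest there. Those of Pdk1, Pgm1, Slc2a4 and Pgk1 were not, and neither was a further, dim probe set of Pfkm. A probe set of Pdha1 that was not its brightest read 2455, 276, 2082, 2083 and 1318 in PE outflow tracts, against 4528, 3994, 4011, 4178 and 3271 in vehicle outflow tracts. Its value on replicate 2 was far below those of the other PE outflow arrays. A second probe set of Pfkm read 1202, 292, 1142, 512 and 354 in PE outflow tracts, against 3781, 3707, 3582, 4121 and 5075 in vehicle outflow tracts. One of Pdk2 read 702, 123, 732, 215 and 148 in PE outflow tracts, against 1937, 1825, 1559, 1897 and 2261 in vehicle outflow tracts. For these 2 genes replicate 5 was only a little above replicate 2. On the brightest probe sets of Pdha1, Pfkm and Pdk2 replicate 2 was not the lowest PE outflow array, and for Pfkm and Pdha1 it was the highest.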
